A study of Mus musculus with 12 samples.

Results

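The 36 genes described here are interferon-stimulated genes, which cells switch on after an interferon, a secreted antiviral signal, binds its receptor. They were listed by symbol, with earlier results of these data known. Each of the 36 symbols had exactly 1 row among the 20718 genes of the deposited table, and all 36 passed the filter on low counts. RNA-seq was run on total RNA from testes of F0 mice whose testes had received virus that overexpressed or inhibited the long noncoding RNA lncRNA8276. The labels name the strain as "IRC mouse" for every sample and give no age. The 4 groups had 3 libraries each: 8276OV (overexpression), 8276KD (knockdown), and the groups labelled 5NC and 3NC, names that the labels do not spell out and that are taken here as controls. The labels do not say which control goes with which treated group. The match was inferred from the order of the groups in the design text, and 8276OV was set against 5NC and 8276KD against 3NC. The labels state neither the type of virus, what the control groups received, an untreated group, nor whether each library of a group is from its own animal. The p-values therefore rest on the variation among the libraries at hand, which may be technical.

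Type I interferons bind the receptor made of IFNAR1 and IFNAR2, whose kinases phosphorylate STAT proteins, STAT2 among them. With IRF9 these form a complex that enters the nucleus and binds a short DNA element, the interferon-stimulated response element (ISRE), near the genes it induces. Many products of these genes bind viral RNA, block viral entry or release, or tag proteins with the ubiquitin-like protein ISG15, and others, such as USP18, damp the signal. In the testis, macrophages, Leydig cells and Sertoli cells are known to mount antiviral responses, while germ cells respond weakly. In whole-testis RNA, a change in the number of cells of one type and a change in RNA per cell cannot be told apart.

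In 8276OV most of these genes had their highest mean level and in 8276KD their lowest. The mean was highest in 8276OV for 32 of 36 genes and lowest in 8276KD for 32 of 36. The shares of all genes were not counted for these ranks, so they have no background here. A background was at hand for the fitted level, which was higher in 8276OV than in 8276KD for 35 of 36 members and for 8403 of 16320 genes. No gene of the 36 passed the test in any comparison of the main analysis (edgeR's quasi-likelihood test, Benjamini-Hochberg adjustment over all 16320 genes tested, threshold 0.05). The ratio of the highest to the lowest group mean in CPM (reads relative to the library total, after edgeR's TMM scaling) ran from 1.20 for Trim25 to 16.5 for Ifi44, with a median of 2.79. The SD within a group, as a percentage of the mean, had a median over the 36 genes of 42.4% in 3NC, 32.6% in 5NC, 21.1% in 8276KD and 36.1% in 8276OV.

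The ISRE was looked for in RefSeq promoters (GRCm38.p6, the same assembly as mm10), in windows from 250 bases before to 50 bases after each annotated start. The motif searched was the core of the ISRE, GAAA, any 2 bases, GAAA, on both strands, with overlapping matches counted separately. A window was held for 29 of the 36 genes, and none for Ifi204, Oas2, Usp18, Ifi27, Rtp4, Parp14 and Parp9. At least 1 match was present for 12 of the 29 genes (41.4%): Bst2, Ifit1, Ifit3, Ifitm2, Ifitm3, Isg15, Oas1a, Oas3, Rsad2, Stat2, Trim21 and Trim30a. The share among all 27025 genes with a window was 3.99%. At least 2 matches were present for 7 members, and for 0.266% of all genes. With a shorter motif, GAAA, 2 bases, GAA, 15 of the 29 (51.7%) had a match, against 9.76% of all genes. The 4 promoters below are shown to let the element be read in place and are those of Isg15, with 3 matches, and of the 3 members with the smallest p in 8276OV against 5NC among the 6 with 2 matches (Ifitm3, Oas1a and Trim21 are the others). Each is given as the 250 bases before the start, 5′ to 3′ on the gene's own strand. Capitals mark the matched bases, and Isg15 and Bst2 carry the motif on the strand shown while Ifit1 and Ifit3 carry it on the opposite strand, where it reads TTTC, 2 bases, TTTC.
Isg15: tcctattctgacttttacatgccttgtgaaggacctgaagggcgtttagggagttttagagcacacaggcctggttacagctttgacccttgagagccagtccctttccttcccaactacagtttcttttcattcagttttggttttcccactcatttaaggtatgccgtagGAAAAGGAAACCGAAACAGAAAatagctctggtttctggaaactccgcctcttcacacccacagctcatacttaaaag
Ifit1: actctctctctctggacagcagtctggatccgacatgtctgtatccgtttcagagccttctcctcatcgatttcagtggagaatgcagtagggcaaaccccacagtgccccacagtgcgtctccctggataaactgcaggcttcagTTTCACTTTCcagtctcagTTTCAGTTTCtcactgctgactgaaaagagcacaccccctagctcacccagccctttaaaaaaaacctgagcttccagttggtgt
Ifit3: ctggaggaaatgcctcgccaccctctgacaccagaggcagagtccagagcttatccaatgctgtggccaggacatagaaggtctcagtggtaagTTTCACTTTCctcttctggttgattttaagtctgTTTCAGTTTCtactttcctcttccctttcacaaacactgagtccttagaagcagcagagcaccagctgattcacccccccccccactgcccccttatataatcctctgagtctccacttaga
Bst2: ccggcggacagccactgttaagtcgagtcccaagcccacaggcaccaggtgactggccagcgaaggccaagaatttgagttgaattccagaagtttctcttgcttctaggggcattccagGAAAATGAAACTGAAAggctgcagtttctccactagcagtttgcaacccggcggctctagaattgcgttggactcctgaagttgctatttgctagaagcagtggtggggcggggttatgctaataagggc
Isg15 has its 3 overlapping matches between bases -78 and -57 from the start (chr4:156200819-156201068, minus strand). Ifit1 has matches at -104 to -95 and -85 to -76 (chr19:34640639-34640888, plus strand). Ifit3 has them at -156 to -147 and -122 to -113 (chr19:34583279-34583528, plus strand), and Bst2 has 2 overlapping ones between -130 and -115 (chr8:71537473-71537722, minus strand). A match describes letters only and was not tied to binding. The 12 genes with a match had a median log2 fold change in 8276OV against 5NC of 0.80 (0.12 to 1.44), and the 17 without one had 0.74 (-0.24 to 2.97). The ranges overlap, and a match in this window did not separate the genes by the size of their fold change in this comparison. In 8276OV against 8276KD the medians were 1.51 with a match and 1.18 without, and the difference was not tested. Among the genes without a match, Ifi44, Samd9l and Trim25 matched the shorter motif.

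Library totals ran from 15448442 to 16355720 estimated reads. In the first principal component of all genes (19.1% of the variance), 8276OV replicates 1 and 3 and 3NC replicate 2 scored 29.0 to 30.3, and 8276OV replicate 2 scored 10.3, apart from the other libraries. All 12 fixed markers of testis germ cells were present in every group, with a summed level of 16625 to 21025 CPM per library. All 14 macrophage markers were tested and none was at 0. Of the 17 lymphocyte and granulocyte markers, 6 passed the filter, and their list summed to 10.2 to 15.6 CPM in 11 libraries and to 27.9 CPM in 8276OV replicate 1. In the deposited values taken as FPKM (reads scaled by gene length), these interferon-stimulated genes were mostly low. The median of their means was 1.46 FPKM, and 14 of 36 were under 1. The highest were Ifi27 (25.8 FPKM), Ifitm3 (22.5), Ifitm2 (19.1), Bst2 (11.8) and Herc6 (9.05), and the lowest was Rsad2 (0.168), which had 116 reads in all 12 libraries.

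**Figure D1:**
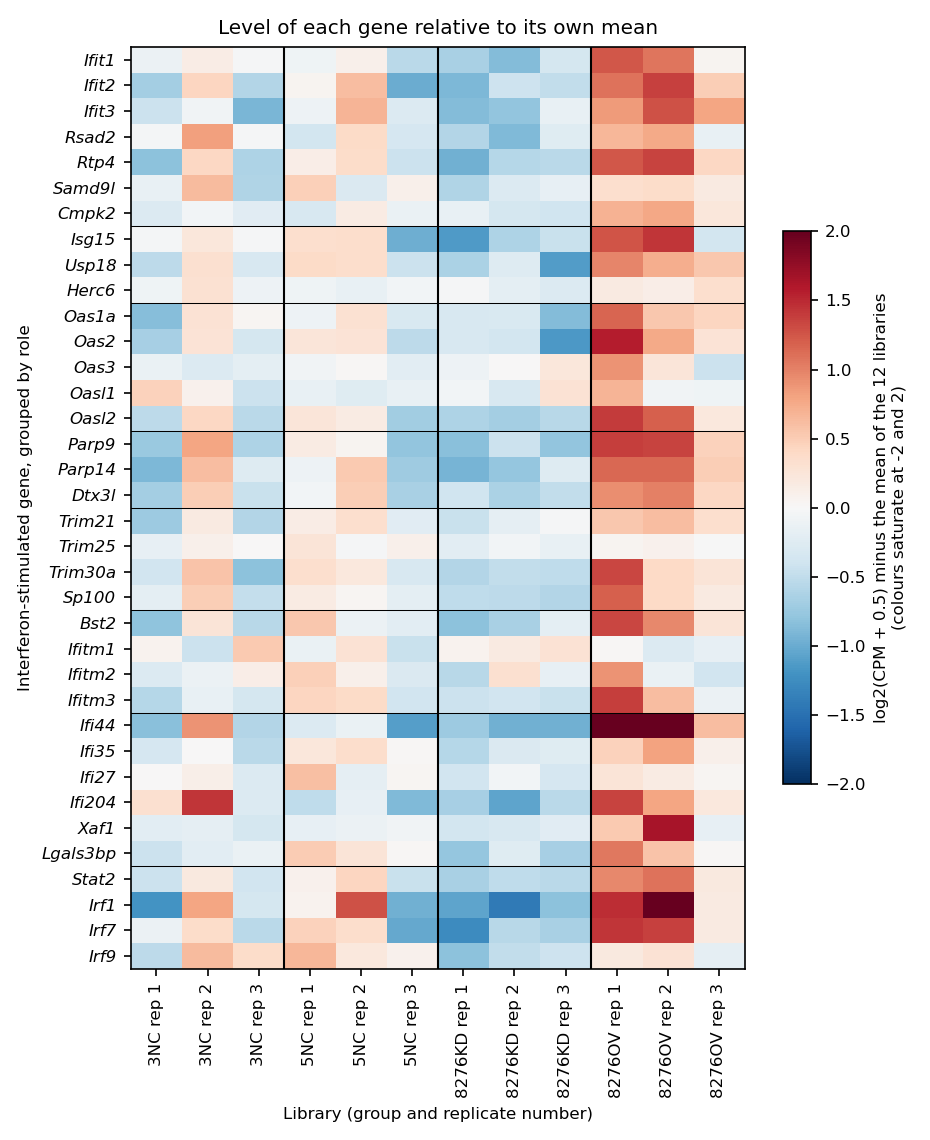
Level of each of the 36 genes (rows, grouped by role) in the 12 libraries (columns, grouped), as log2(CPM + 0.5) minus the gene's own mean over the 12 libraries. The 8276OV columns are mostly red (above the mean), 8276OV replicate 3 less so, and the 8276KD columns mostly blue, while 3NC replicate 2 is redder than the other 3NC libraries.

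The plot of levels by library showed that the lean was not even within groups. The median of the 36 genes around their own means, in log2 units, was 1.01, 0.77 and 0.19 in 8276OV replicates 1, 2 and 3, and -0.60, -0.42 and -0.43 in 8276KD. In 3NC it was -0.40, 0.28 and -0.35, and in 5NC 0.14, 0.24 and -0.33. The 8276KD libraries lay lowest, all 3 below every other library, and 8276OV replicates 1 and 2 highest, while 8276OV replicate 3 was close to 5NC replicates 1 and 2 and below 3NC replicate 2. 3NC replicate 2 was the highest of its group for 31 of 36 genes, 8276OV replicate 3 the lowest of its group for 34 and 5NC replicate 3 the lowest of its group for 28. Over all genes, the same libraries were highest or lowest in 41.9%, 40.3% and 27.8% of cases. Markers of macrophages were highest in 8276OV as well on this scale. The median of the 14 markers around their own means was 0.97, 0.12 and 0.0052 in 8276OV, 0.28, -0.064 and -0.16 in 5NC, -0.37, 0.016 and -0.24 in 3NC and -0.35, -0.14 and -0.15 in 8276KD. 8276OV replicate 1 was far above every other library, 8276OV replicate 2 was below 5NC replicate 1, and 3NC replicate 2 was the highest of its group. Aif1 alone gave 254 to 348 CPM of the markers' summed level, and the other 13 markers summed to 267, 166 and 149 CPM in 8276OV, 178, 130 and 122 in 5NC, 104, 145 and 112 in 3NC and 112, 129 and 125 in 8276KD. Ptprc (CD45), a marker of all leukocytes chosen after its values were seen, had 10.3, 4.32 and 5.56 CPM in 8276OV, 3.11, 2.56 and 2.05 in 5NC, 1.80, 4.63 and 2.03 in 3NC and 1.72, 2.98 and 2.10 in 8276KD. Markers of leukocytes were thus highest in 8276OV replicate 1, as the interferon-stimulated genes were, and their part in the levels of these genes was not tested.

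**Figure D2:**
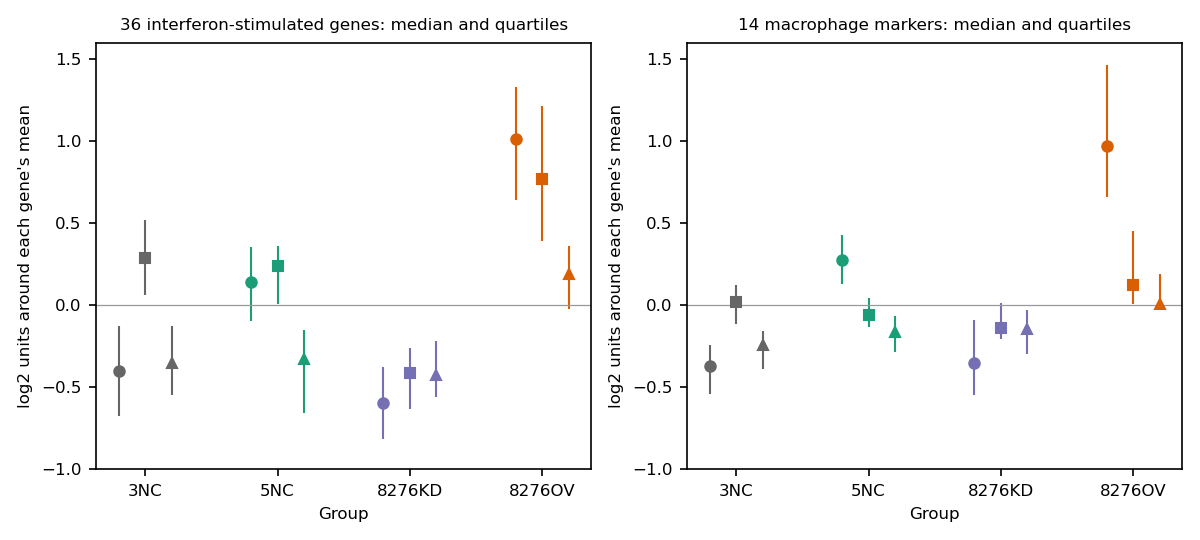
Left, the median (marker) and quartiles (bars) of the 36 genes in each library, in log2 units around each gene's mean; right, the same for 14 macrophage markers; circle, square and triangle are replicates 1, 2 and 3. 8276OV replicate 1 is highest in both panels (medians of 1.01 and 0.97), and replicate 2 has 0.77 on the left and 0.12 on the right.

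Among the transcription factors of the pathway, Stat2 (chr10:128270498-128292853), which carries the signal from the receptor to the nucleus, had 22.5, 24.8 and 13 CPM in 8276OV against 12, 15.4 and 8.2 in 5NC, 8.29, 13 and 8.53 in 3NC and 7.07, 7.84 and 7.65 in 8276KD. Its 8276KD libraries lay below those of every other group and its 8276OV libraries overlapped those of 5NC, and the lowest of them was level with 3NC replicate 2. Irf7 (chr7:141263183-141266499), which amplifies type I interferon production, had 8.85, 8.52 and 3.43 CPM in 8276OV, 4.27, 3.94 and 1.22 in 5NC, 2.7, 4.02 and 1.9 in 3NC and 0.956, 1.88 and 1.72 in 8276KD. Irf1, induced by interferon gamma and other signals, was the most variable, with 24.7, 35.7 and 9.8 CPM in 8276OV and 9.04, 21.6 and 4.16 in 5NC. For it, 3NC had 3.47, 15.3 and 6.63 CPM and 8276KD 3.89, 2.91 and 4.65. In each of 5NC and 8276OV the second library was the highest for Irf1 and the third the lowest. Irf9, the DNA-binding partner of STAT2, had its highest mean in 5NC, with 7.95, 8.52 and 6.06 CPM in 8276OV and 11.2, 8.08 and 7.3 in 5NC. Its lowest mean was in 8276KD (3.7, 4.73 and 5.04 CPM), which overlapped 3NC (4.63, 10.9 and 8.99).

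Several of the effector genes are neighbours on a chromosome, as Ifit2, Ifit3 and Ifit1 are on chromosome 19. Ifit1 (chr19:34640889-34650009), a sensor of viral RNA caps, had 2.76, 2.38 and 0.936 CPM in 8276OV, 0.794, 0.986 and 0.448 in 5NC, 0.771, 1.03 and 0.853 in 3NC and 0.382, 0.259 and 0.574 in 8276KD. Its gene model lies wholly inside that of Ifit1bl1, and Ifit1 and Ifit3 had fractional read estimates, so their values are uncertain. Ifit3 (chr19:34583119-34588982), its partner in the IFIT complex, had 3.65, 5.08 and 3.5 CPM in 8276OV, 1.65, 3.22 and 1.41 in 5NC, 1.22, 1.7 and 0.722 in 3NC and 0.765, 0.842 and 1.59 in 8276KD, and its 8276OV libraries lay above all others. Ifi44 (chr3:151730922-151749910), an induced gene of the cytoplasm, had the widest range: 5.06, 5.01 and 1.56 CPM in 8276OV, 0.611, 0.723 and 0.128 in 5NC, 0.257, 2.01 and 0.394 in 3NC and 0.319, 0.194 and 0.191 in 8276KD. Its 8276KD libraries held 11 reads in all, and 3NC replicate 2 lay above 8276OV replicate 3. Rsad2 (viperin), an enzyme that makes an antiviral nucleotide, had 1.15, 1.25 and 0.437 CPM in 8276OV, 0.305, 0.854 and 0.32 in 5NC, 0.514, 1.34 and 0.525 in 3NC and 0.191, 0.0648 and 0.383 in 8276KD, where it had 10 reads in all. Rtp4, a receptor transporter induced by interferon, had 5.58, 6.08 and 2.93 CPM in 8276OV, 2.32, 2.83 and 1.41 in 5NC, 0.964, 2.92 and 1.18 in 3NC and 0.828, 1.23 and 1.28 in 8276KD. For Rtp4 every 8276KD library lay below every 5NC and 8276OV library. Next to Rsad2 on chromosome 12, Cmpk2, a mitochondrial nucleotide kinase, had 6.67, 7.08 and 4.68 CPM in 8276OV, above 3.05, 4.47 and 3.52 in 5NC, 3.15, 3.77 and 3.28 in 3NC and 3.5, 2.98 and 2.87 in 8276KD. The other effectors, Ifit2 and Samd9l, had mean levels of 3.85 and 9.61 CPM in 8276OV and 0.919 and 6.03 CPM in 8276KD.

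**Figure D3:**
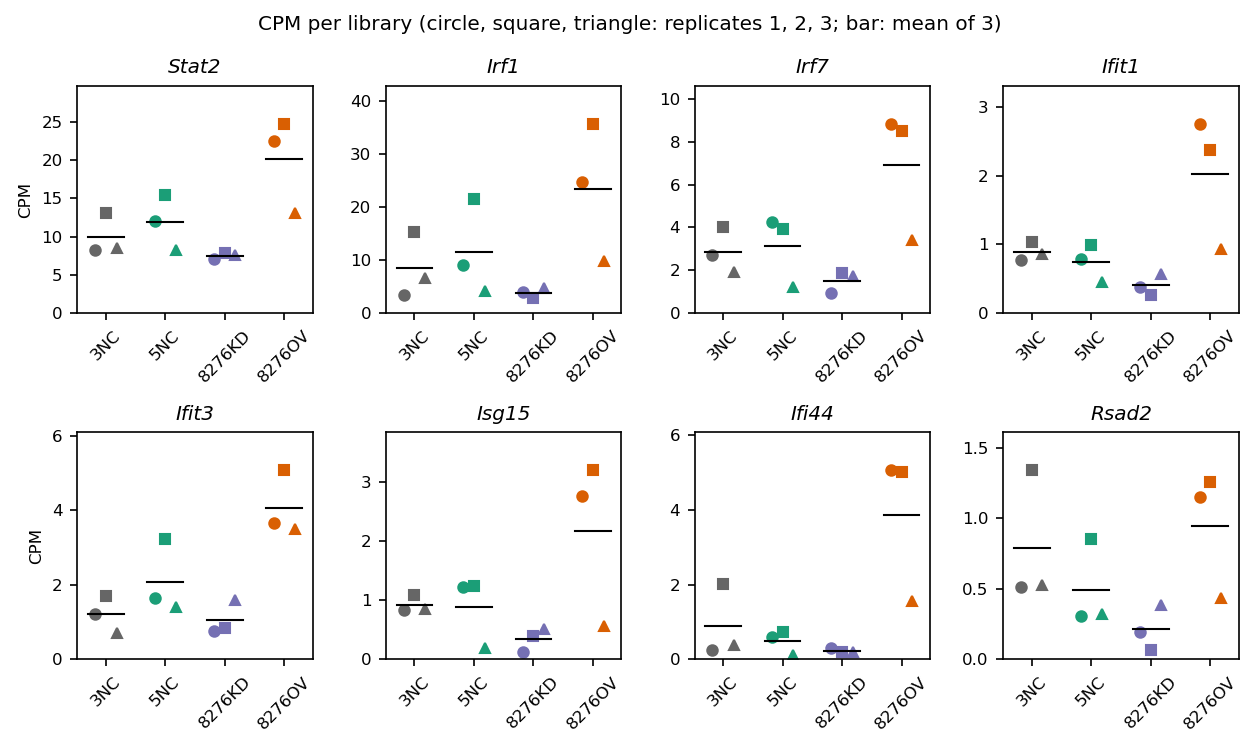
CPM per library for 8 of the 36 genes; circle, square and triangle are replicates 1, 2 and 3 and the bar is the mean of 3, on linear axes from 0. The third 8276OV library is the lowest of its group in every panel, and 3NC replicate 2 is the highest of its group in every panel, for Irf1 with 15.3 CPM against 3.47 and 6.63.

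Isg15 (chr4:156199424-156200818), whose product is the ubiquitin-like tag, had 2.76, 3.2 and 0.562 CPM in 8276OV, 1.22, 1.25 and 0.192 in 5NC, 0.835, 1.1 and 0.853 in 3NC and 0.127, 0.389 and 0.51 in 8276KD. Usp18, which removes the tag and blunts receptor signalling, had 2.18, 1.75 and 1.5 CPM in 8276OV, above 1.28, 1.25 and 0.512 in 5NC. Herc6, the mouse ligase for ISG15, was the most abundant of the 36 by reads (8809 in all). Its groups lay close together, with 52.2, 50.6 and 58.3 CPM in 8276OV, 43.5, 41.7 and 44.6 in 5NC, 43.7, 57.3 and 42.9 in 3NC and 45.3, 40.4 and 38.2 in 8276KD. The genes of the OAS family on chromosome 5 differed among themselves. OAS enzymes make the second messenger that activates RNase L, and OASL1 is a relative that lacks this activity. Oas2 (4.87, 2.57 and 1.69 CPM in 8276OV and 0.956, 0.907 and 0.319 in 8276KD) and Oasl2 (21.6, 18.7 and 9.24, and 4.97, 4.73 and 5.23) were apart in all libraries of these groups. Oas3 (4.04, 2.38 and 1.31, and 1.78, 1.94 and 2.36) and Oasl1 (2.56, 1.32 and 1.31, and 1.34, 1.04 and 1.85) overlapped.

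Of the membrane restriction factors, Bst2 (tetherin), which holds budding virus at the cell surface, had 17.5, 13.5 and 8.05 CPM in 8276OV and 9.95, 6.11 and 5.7 in 5NC. The IFITM genes on chromosome 7, which block viral entry at endosomes, differed from each other. Ifitm3 had 28.4, 16.5 and 9.74 CPM in 8276OV and 7.77, 8.03 and 7.65 in 8276KD, while Ifitm1 had 1.35, 1 and 1.12 in 8276OV and 1.4, 1.55 and 1.72 in 8276KD. Ifitm1 was the one member whose 8276OV libraries lay wholly below the 8276KD libraries. The chromosome 16 neighbours Parp9 and Dtx3l, whose products form an ADP-ribosylation and ubiquitin complex, were high in 8276OV, with 9.87, 9.65 and 4.93 CPM for Parp9 and 7.44, 7.96 and 5.06 for Dtx3l. In 5NC they had 3.97, 3.61 and 1.79, and 3.54, 5.39 and 2.18. Parp14, the third gene there, had a mean of 11.7 CPM in 8276OV and 5.75 in 5NC. The gene models of Parp9 and Dtx3l share 558 bases and have fractional estimates, so reads may be split between them. Sp100 and Trim30a had means of 5.07 and 5.09 CPM in 8276OV and 1.92 and 1.82 CPM in 8276KD. Trim25, which activates the RNA sensor RIG-I, was the steadiest, with 14.7, 15 and 14.1 CPM in 8276OV and 12.2, 13.5 and 12.7 in 8276KD. Xaf1, a pro-apoptotic induced gene, had 16.7 CPM in 8276OV replicate 2 but 7.44 and 4.43 in replicates 1 and 3, the latter inside the 4.4 to 4.74 of 5NC. Ifi204, a DNA sensor of the p200 family with close paralogs and fractional estimates, had 4.87, 3.13 and 1.94 CPM in 8276OV and 0.977, 1.38 and 0.641 in 5NC. In 3NC it had 2.12, 5.17 and 1.25, of which the last overlapped 5NC, and in 8276KD 0.828, 0.518 and 0.956. So Ifi204 was high in 3NC as well as in 8276OV.

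In 8276OV against 5NC, 32 of 36 members had a higher fitted level and the median log2 fold change was 0.83, against -0.0020 over all genes tested. None passed edgeR's adjusted threshold, and none of 16320 genes did (0.0%). At an unadjusted p under 0.05, 19 members were higher and none lower, against 5.61% of all genes higher. In 12 members every 8276OV library lay above every 5NC library, against 7.64% of all genes. In none did every library lie below, against 1233 of 16320 genes. The 5 smallest p-values belonged to Ifi44 (2.97 ± 0.70, SE), Ifit1 (1.44 ± 0.41), Ifi204 (1.72 ± 0.50), Cmpk2 (0.74 ± 0.20) and Parp9 (1.38 ± 0.45), each with an adjusted p of 0.404 by edgeR. DESeq2 called 1 member, Ifi44 (0.306% of all genes called), and limma voom with sample weights called 3, Ifi44, Oasl2 and Parp9 (0.190%). By role, the median log2 fold change was 0.89 for the 4 transcription factors, 0.96 for the 7 IFIT and other effectors, 1.10 for the 5 OAS genes, 0.83 for the ISG15 system, 1.03 for the 3 PARP and DTX3L genes, 0.60 for the TRIM and nuclear body genes, 0.35 for the 4 membrane factors and 0.69 for the other genes. In the same comparison, 14 of 14 macrophage markers had a higher fitted level (median log2 fold change 0.53, 0 past edgeR's threshold), 0 of 8 Leydig cell markers did (median -0.49) and 1 of 10 Sertoli cell markers did (median -0.19). The 4 tested epididymis markers had a median of -3.85. The 6 with values summed to 19.8 to 127 CPM in 5NC and 6.06 to 17.9 in 8276OV. They summed to 5.65 to 11.6 CPM in 3NC and 7.08 to 16.5 in 8276KD, so 5NC was the group apart. The part of all these lists was not tested. Without 8276OV replicate 1 the macrophage median was 0.12, with 9 of 14 higher, and that of the 36 genes was 0.67, with 31 of 36 higher. The 4 members that were not higher were Irf9 (-0.24), Ifitm1 (-0.09), Trim25 (-0.07) and Ifi27 (-0.04). Against 3NC in place of 5NC the median was 1.02, with 34 higher, 23 of them at an unadjusted p under 0.05 against 3.19% of all genes, and none adjusted.

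Same-numbered libraries from 8276OV and 5NC deviated from their group means together (r of 0.165, 0.149 and 0.109 across genes), which met the rule for pairing. By number, 32, 34 and 30 of the 36 genes were higher in 8276OV, and 27 in all 3 numbers, with a median log2 difference of 0.96, 0.50 and 0.58. The share of all genes was not counted for these numbers. In the main fit, 32 of 36 members and 8103 of 16320 genes were higher in 8276OV than in 5NC. In a fit of these 2 groups with the replicate number as a block, 14 of 36 members passed edgeR's adjusted threshold, all higher, against 1.35% of all genes. They were Stat2 (0.75 ± 0.14, adjusted p = 0.00163 by edgeR), Irf1 (1.11 ± 0.15, adjusted p = 9.02e-06), Irf7 (1.17 ± 0.21, adjusted p = 0.00076), Parp9 (1.38 ± 0.20, adjusted p = 2.51e-05) and Ifi44 (3.00 ± 0.34, adjusted p = 9.34e-08), together with Ifit1, Ifit2, Ifit3, Dtx3l, Ifi204, Parp14, Rtp4, Bst2 and Oasl2. With the block in the fit of all 4 groups, none passed. The pairing was read from the same libraries that were tested, the labels do not state it, and other matchings of the numbers were not compared. The adjusted p-values of the blocked fit of 2 groups rest on that choice and on few libraries. They are no firmer evidence than the main fit, in which none of the 36 passed.

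In 8276KD against 3NC, 33 of 36 members had a lower fitted level, with a median log2 fold change of -0.49 against -0.0021 over all genes. None passed edgeR's adjusted threshold (0.178% of all genes did), and DESeq2 and limma voom called none of them (0.435% and 0.570% of all genes). At an unadjusted p under 0.05, 4 members were lower, against 3.47% of all genes. Every 8276KD library lay below every 3NC library in 8 members, namely Ifit1, Rsad2, Isg15, Oasl2, Sp100, Ifi204, Irf7 and Stat2, against 8.74% of all genes, and above in 1, Oas3, against 7.71%. The 5 smallest p-values belonged to Ifi204 (-1.89 ± 0.52, adjusted p = 0.408 by edgeR), Irf9 (-0.87 ± 0.27, 0.577), Rsad2 (-1.87 ± 0.67, 0.699), Ifit1 (-1.12 ± 0.48, 0.764) and Ifi44 (-1.90 ± 0.90, 0.764). Much of the lower level lay with 1 control library: without 3NC replicate 2 the median was -0.09, 12 of 36 were higher, Ifi204 had -1.12 and Ifi44 had -0.45. Against 5NC in place of 3NC, the median was -0.67, with 33 lower and 9 at an unadjusted p under 0.05 (2.70% of all genes).

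In the control groups the members were spread around a smaller difference. In 5NC against 3NC, 26 of 36 members were higher with a median log2 fold change of 0.14, and none passed the adjusted threshold of edgeR (0.362% of all genes), DESeq2 (0.907%) or limma voom (0.705%). At an unadjusted p under 0.05, Lgals3bp and Ifi35 were higher, against 5.94% of all genes, and Ifi204 was lower, against 6.15%. Lgals3bp, which encodes a secreted glycoprotein, had 23.1, 19.5 and 16.5 CPM in 5NC, 11.9, 13.9 and 14.6 in 3NC, 9.18, 13.6 and 10 in 8276KD and 34, 24.1 and 16.3 in 8276OV. Ifi35 had 3.48, 3.81 and 2.95 CPM in 5NC, 2.18, 2.92 and 1.84 in 3NC, 1.78, 2.27 and 2.36 in 8276KD and 4.17, 5.39 and 3.12 in 8276OV. Both were thus higher in every 5NC library than in any 3NC library. Trim21, an antibody receptor of the cytosol, overlapped between them, with 2.08, 2.43 and 1.47 CPM in 5NC, 0.9, 2.13 and 1.05 in 3NC, 1.21, 1.55 and 1.79 in 8276KD and 2.88, 3.07 and 2.43 in 8276OV. Lgals3bp (0.55 ± 0.23, adjusted p = 0.397 by edgeR), Ifi35 (0.56 ± 0.24, 0.402), Ifi204 (-1.51 ± 0.50, 0.322), Ifit3 (0.77 ± 0.39, 0.432) and Trim21 (0.54 ± 0.32, 0.488) had the smallest p-values. Ifi204 had -0.75 without 3NC replicate 2. Every 5NC library lay above every 3NC library for 3 members, Lgals3bp, Xaf1 and Ifi35 (8.13% of all genes). Without 3NC replicate 2 the median was 0.54, with 31 higher. All 4 tested epididymis markers were higher in 5NC than in 3NC (median log2 fold change 4.25, 1 past edgeR's threshold), and their part was not tested.

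In 8276OV against 8276KD, 2 treated groups with no shared control, 35 of 36 members were higher and the median log2 fold change was 1.48, against 0.0074 over all genes. None passed edgeR's adjusted threshold (0.0551% of all genes did), and 31 were higher at an unadjusted p under 0.05 (4.83% of all genes). DESeq2 called 22 members (0.882% of all genes) and limma voom 26 (1.41%), all higher. Every 8276OV library lay above every 8276KD library in 32 members, against 9.74% of all genes, and below in 1, Ifitm1, against 9.65%. For some of the 32 the gap was very small. Isg15 had 9 reads in 8276OV replicate 3 and 8 in 8276KD replicate 3, and Rsad2 had 7 and 6 there. The smallest p-values belonged to Stat2 (1.42 ± 0.27), Ifit1 (2.30 ± 0.45), Ifit3 (1.93 ± 0.38) and Rtp4 (2.12 ± 0.41), each with an adjusted p of 0.0936 by edgeR, and to Lgals3bp (1.18 ± 0.23, 0.108). Without 8276OV replicate 3, 14 members passed edgeR's adjusted threshold (0.448% of all genes), among them Lgals3bp, Ifit1, Stat2 and Isg15. Without 3NC replicate 2, which belongs to neither group but shares the estimate of spread, 7 passed (0.26% of all genes). Without 5NC replicate 3 Stat2 alone did (0.0908% of all genes). Of the macrophage markers, 12 of 14 were higher too (median log2 fold change 0.73, 0 past edgeR's threshold), and 0 of 8 Leydig cell markers were (median -0.28); their part in this difference was not tested. Without 8276OV replicate 1 the macrophage median was 0.29, with 11 of 14 higher, and that of the 36 genes was 1.37, with 32 of 36 higher.

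The difference between the overexpression effect (8276OV against 5NC) and the knockdown effect (8276KD against 3NC) was tested directly. For 35 of 36 members it was positive, with a median of 1.21, against 7.22e-05 over all genes, and 22 had an unadjusted p under 0.05 and a positive sign (8.73% of all genes). None passed edgeR's adjusted threshold (0.0613% of all genes). DESeq2 called 2 members, Ifi204 and Ifi44 (0.588% of all genes), and limma voom 1, Ifi204 (0.239%). The smallest p-values were those of Ifi204 (3.61 ± 0.72, adjusted p = 0.123 by edgeR), Ifi44 (4.87 ± 1.13, 0.213), Ifit1 (2.55 ± 0.63, 0.213), Herc6 (0.53 ± 0.16, 0.257) and Rsad2 (2.81 ± 0.88, 0.257). The log2 fold change of 5NC against 3NC enters this difference with its sign reversed. It was -1.51 for Ifi204, -0.87 for Ifi44, -0.26 for Ifit1, -0.15 for Herc6 and -0.70 for Rsad2. Without 3NC replicate 2 the median was 0.87.

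**Figure D4:**
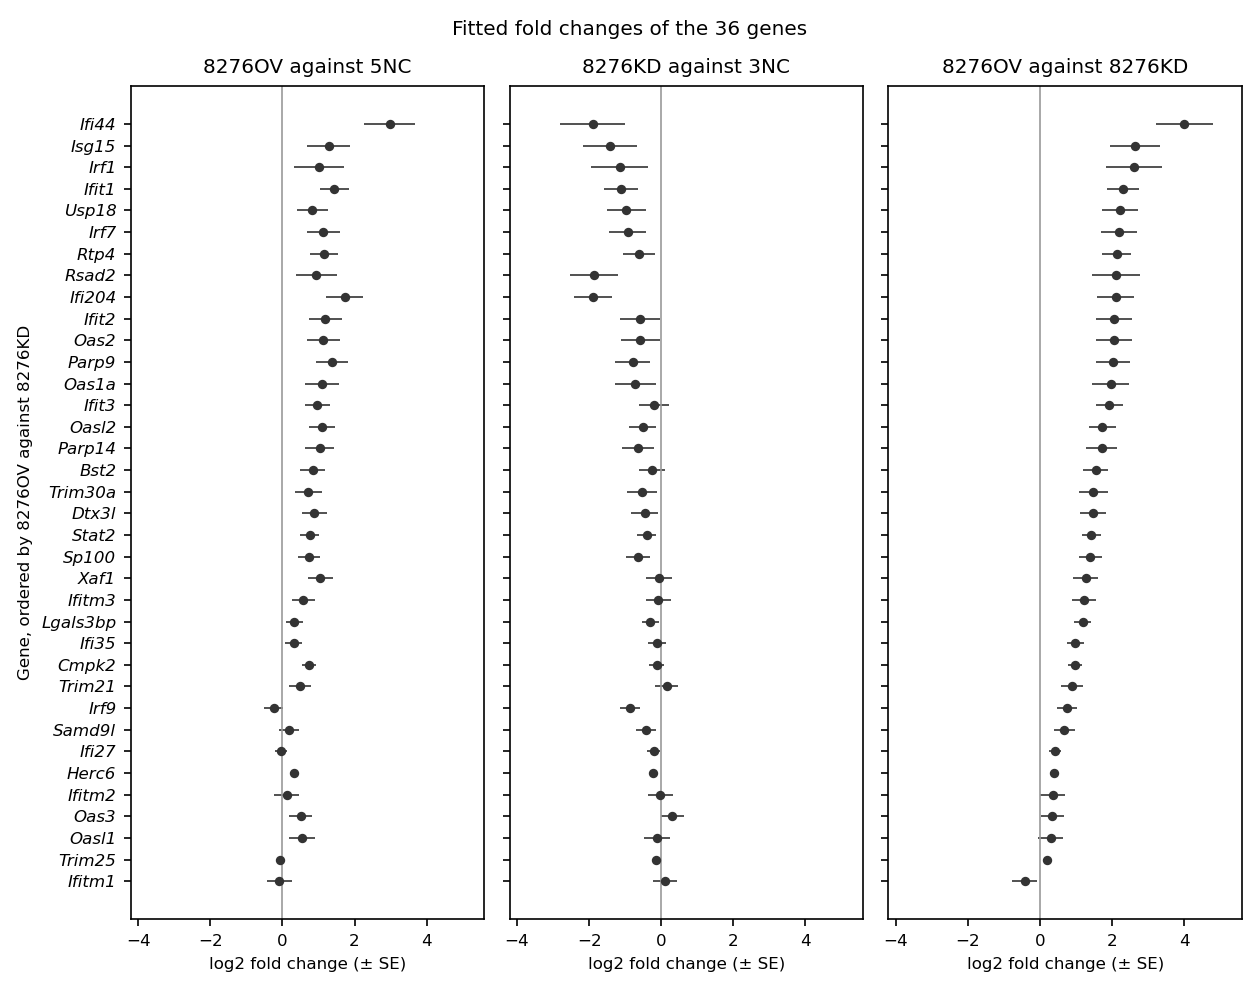
Fitted log2 fold change with its SE for each of the 36 genes (rows, ordered by 8276OV against 8276KD) in 3 comparisons. In 8276OV against 5NC 32 of 36 points lie above 0, in 8276KD against 3NC 33 lie below 0, and in 8276OV against 8276KD 35 lie above 0, all but Ifitm1 (-0.43).

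The other genes of the pathway were mostly not called. Of the 21 interferon ligands listed, 13 were in the table and 8, among them Ifnb1, had no row under the symbols used. The 13 together had 3 to 14 reads per library (100 in all), and none was tested. The 6 receptor genes were all tested and none was called; Ifnar1 had 33.9 ± 1.16 CPM in 3NC, 34.1 ± 2.46 in 5NC, 34.9 ± 3.07 in 8276KD and 38.1 ± 2.78 in 8276OV (mean ± SD, n = 3). The 5 receptor kinase and other STAT genes, none called, had a median log2 fold change of 0.0060 in 8276OV against 5NC, -0.32 in 8276KD against 3NC and 0.44 in 8276OV against 8276KD. Over the whole set of 51 other pathway genes, which holds ligands, receptors, kinases, regulatory factors and inhibitors, 30 were tested, and their median log2 fold change was 0.07 in 8276OV against 5NC, 0.02 in 8276KD against 3NC and 0.11 in 8276OV against 8276KD. Uba7, the enzyme that activates ISG15, was placed in the list of inhibitors although it is none. It had 5.26, 6.02 and 2.25 CPM in 8276OV, 2.56, 2.76 and 0.961 in 5NC, 0.964, 1.64 and 0.919 in 3NC and 0.701, 0.907 and 0.829 in 8276KD, and its log2 fold change in 8276OV was 1.1 ± 0.39 against 5NC (adjusted p = 0.419 by edgeR) and 2.46 ± 0.43 against 8276KD (0.0800).

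The only pathway genes past the threshold were 1 each in 2 comparisons, and both were Socs3, which encodes a feedback inhibitor of JAK kinases. It fell in 8276KD against 3NC by 2.60 on the log2 scale (SE 0.38, adjusted p = 0.0136 by edgeR) and in 5NC against 3NC by 2.76 (SE 0.39, adjusted p = 0.00585). With 3NC replicate 2 left out, the knockdown comparison no longer passed (adjusted p = 0.0603 by edgeR), nor did it without 8276KD replicate 1, 2 or 3 (0.118, 0.145 and 0.0883). The comparison of the controls did not pass without 5NC replicate 3 (0.0739). Against 5NC, Socs3 in 8276KD had a log2 fold change of 0.16. The 3NC libraries, which both comparisons share, had 7.52, 14.4 and 10.8 CPM, against 2.08, 1.45 and 1.28 in 5NC, 1.85, 1.42 and 2.1 in 8276KD and 3.78, 1.63 and 0.999 in 8276OV. The level in 3NC was thus apart from the other 3 groups, and Socs3 was low in the group with the highest levels of the interferon-stimulated genes as well as in the group with the lowest. The other pathway genes of smallest p were Ptpn6, a phosphatase that damps the kinases (0.71 ± 0.28, adjusted p = 0.444 by edgeR), in 8276OV against 5NC and Irf2, a repressor that competes with IRF1 (0.51 ± 0.15, adjusted p = 0.334), in 8276OV against 8276KD. In the difference between the effects they were Socs3 (3.01 ± 0.57, adjusted p = 0.0980 by edgeR) and Irf2bp1, which encodes a partner of IRF2 (-0.88 ± 0.27, 0.257). For Socs3, the fall of 2.76 in 5NC against 3NC enters this difference with its sign reversed.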

How the data were processed

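Testis RNA-seq of 12 samples was used. Per the file headers and values, the deposited table gives for each gene an estimated count of reads, which the authors did not round (88.0% of values were whole within 1e-06), and a second value that the headers do not name. The deposited second value was taken as FPKM, reads scaled by gene length and library total before deposit. Over 5204 genes with more than 500 reads, it differed from a scaling by library total by a median of 0.314%. Each gene was compared with its own mean over libraries there, so the scaling by gene length was not checked. Reads were placed on mm10 per the submitters' processing notes. No source used here names the aligner, counter, strand setting or annotation. In the table, 18 other columns of per-sample values were not used.

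Counts were rounded and tested in R 4.3.3 with edgeR 4.0.16: TMM scaling, filterByExpr with a minimum count of 10 and total of 15, and the robust quasi-likelihood fit of all 4 groups, with Benjamini-Hochberg adjustment over 16320 genes. Alternatives used DESeq2 1.42.0, limma 3.58.1, other filters, no filter, FPKM on a log2 scale, the other control, a replicate block and leaving out each library. The functions were tested on simulated data. Samples with the same number correlated across genes (r of 0.165, 0.149 and 0.109) for 8276OV and 5NC, each over 0.1, which the rule used here takes as pairing, though the labels say nothing of it. For 8276KD and 3NC r was 0.0079, 0.031 and 0.056, so those numbers were not taken as pairing.

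The 36 members and the lists of other genes were chosen with earlier results of these data known, so no p adjusted over a list alone is given. Named genes are those called or, where fewer than 5 members are called, the 5 of smallest p in each comparison, and of other pathway genes those called or else the 2 of smallest p. CPM is computed with TMM-scaled library totals. Promoter sequences are RefSeq's. A count of 3 reads corresponds to 0.183 to 0.194 CPM. A gene model that overlaps another, without a known strand setting, can share reads with it: Ifi27 lies within Ifi27l2a, and Rtp4, Stat2, Usp18, Isg15, Herc6, Trim25 and Trim30a overlap other genes. Fractional counts occurred in 10 members, Dtx3l, Ifi204, Ifit1, Ifit3, Oas1a, Oas3, Parp9, Sp100, Trim30a and Xaf1.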

Additional observations from a re-analysis of the deposited data

How the results depend on the processing

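The direction of the median over the 36 genes did not change in any comparison under any alternative run. Members called in 8276OV against 5NC numbered 0 in the main analysis, 1 with DESeq2, 3 with limma voom and 14 with a replicate block in a fit of the 2 groups; with the replicate block in the fit of 4 groups they numbered 0. In 8276OV against 8276KD they numbered 0 in the main analysis, 22 with DESeq2, 26 with voom, 6 with the block in 4 groups, 8 with only the 2 groups, 8 with the block in 2 groups and 0 to 14 leaving out 1 library. In the difference of effects they numbered 2 with DESeq2 and 1 with voom. Against 3NC, in 8276KD and in 5NC, no alternative called a member.

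With log2(FPKM + 1), which damps low genes, the medians were 0.44 in 8276OV against 5NC, 0.69 in 8276OV against 8276KD and 0.60 in the difference of effects. In 8276KD against 3NC the median was -0.11 with voom sample weights. Leaving out 1 library gave 0.62 to 1.02 in 8276OV against 5NC, -0.69 to -0.092 in 8276KD against 3NC, 0.012 to 0.54 in 5NC against 3NC, 1.37 to 1.67 in 8276OV against 8276KD and 0.87 to 1.47 in the difference. The extreme values nearest 0 for 8276KD against 3NC and the highest for 5NC against 3NC came without 3NC replicate 2. The cause was not tested. For the single genes named, 666 values kept their direction and side of the threshold, 49 passed it only in the alternative, and 5, all of Socs3, lost the call when 1 library was left out. Socs3 in 8276KD had 0.16 against 5NC, the opposite sign; the alternatives for genes outside the 36 were chosen after seeing the data.

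Over all genes, calls numbered 0, 50, 31 and 215 (edgeR, DESeq2, voom, replicate block in a fit of the 2 groups) in 8276OV against 5NC, 29, 71, 93 and 77 in 8276KD against 3NC, 59, 148, 115 and 94 in 5NC against 3NC, and 9, 144, 230 and 46 in 8276OV against 8276KD, where the block in 4 groups gave 31 and only the 2 groups 33. In the difference they numbered 10, 96 and 39 (edgeR, DESeq2, voom). With log2(FPKM + 1) and log2(FPKM + 0.1) they numbered 32 and 31 in 5NC against 3NC, and with the latter 16 in 8276KD against 3NC and 6 in the difference. Without 8276OV replicate 1, added after seeing the data, the median of the macrophage markers was 0.12 in 8276OV against 5NC (0.53 with it) and 0.29 in 8276OV against 8276KD (0.73 with it). Genes such as Rsad2, with 116 reads in all, are limited by depth.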
